A study of Mus musculus with 6 samples.

Results

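The membrane adenylyl cyclases, Adcy1 to Adcy9, were examined in neurospheres from the adult offspring of mice injected during pregnancy with PBS or with MG, read here as methylglyoxal. The family was chosen by the measured values of one member, because Adcy2 was higher on every MG array than on every PBS array, and the other members were taken by name. Of the 9 genes, 8 had a probe set that names that gene alone, among 22180 such genes on the array. Each of the 8 had a single such probe set. The probe set listed for Adcy3 also names Cenpo, so no value is given for Adcy3.

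All 6 cultures came from CD1 mice, an outbred stock, aged 2 months, and were grown from the subependymal region for 7 days with EGF and FGF2. In 3 cultures the donor's mother had received PBS, and in the other 3 she had received 0.5 mg/kg MG. Injections were intraperitoneal, 2 a day, from gestational day 12 until birth. The labels do not say whether offspring of a group shared a mother, so p-values measure the spread between these cultures and may be too small. Neural stem and progenitor genes were above the reference level, defined below, in both groups for 13 of 13 genes with a probe set of their own, among them Sox2 (10.99 to 11.27 on the log2 scale over the 6 arrays) and Egfr (11.76 to 11.99). Of 6 microglial markers, Cx3cr1 and P2ry12 were above that level in both groups, Csf1r in PBS alone, and Aif1, Tmem119 and Itgam in neither. Of 6 endothelial markers, Flt1, Kdr, Pecam1 and Cdh5 were above it in both groups, and Cldn5 and Tek in neither. At the stricter level of 6.05, also defined below, no microglial marker was above in either group. Of the endothelial markers only Flt1 and Kdr were above that stricter level. The arrays numbered 3 stood apart in both groups, with 9 S phase and mitosis genes at 0.39 and 0.38 relative to the mean of the 6 arrays, against -0.36 to -0.07 elsewhere. For Adcy2, Adcy4, Adcy5, Adcy6 and Adcy8, and for some of the pathway genes, differences are also given without them. In such bulk RNA, fewer cells of a type and less RNA per cell cannot be told apart.

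Adenylyl cyclases convert ATP into cyclic AMP, the messenger that activates protein kinase A and the exchange factor encoded by Rapgef3. The stimulatory G protein alpha subunits, encoded by Gnas and Gnal, switch the membrane cyclases on, and the inhibitory subunits of the Gnai genes restrain several of them. The isoforms differ in what else they sense. Adcy1, Adcy3 and Adcy8 respond to calcium through calmodulin, Adcy2, Adcy4 and Adcy7 are stimulated by G protein beta-gamma subunits when the alpha subunit is also active, Adcy5 and Adcy6 are inhibited by calcium, and Adcy9 is poorly sensitive to forskolin. In neural progenitors cyclic AMP signalling is known to influence proliferation and differentiation.

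Levels were read against a reference, set at 5.02, the 95th percentile of the mean log2 signals of 1394 odorant and vomeronasal receptors. The means of all 8 measured cyclases were above it in both groups, where 61.9% of all genes were. At a stricter reference, the 99th percentile at 6.05, Adcy1, Adcy2, Adcy5, Adcy6, Adcy8 and Adcy9 were still above in both groups, and Adcy4 and Adcy7 were in neither. Adcy4 was close to the reference, between 4.92 and 5.55, and so was Adcy7, between 5.10 and 5.34. Signals of different probe sets are not on a common scale, so the isoforms are not ranked against each other. The soluble cyclase gene Adcy10, which encodes an enzyme activated by bicarbonate and calcium, lay between 2.82 and 3.32, below the reference on every array.

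**Figure D1:**
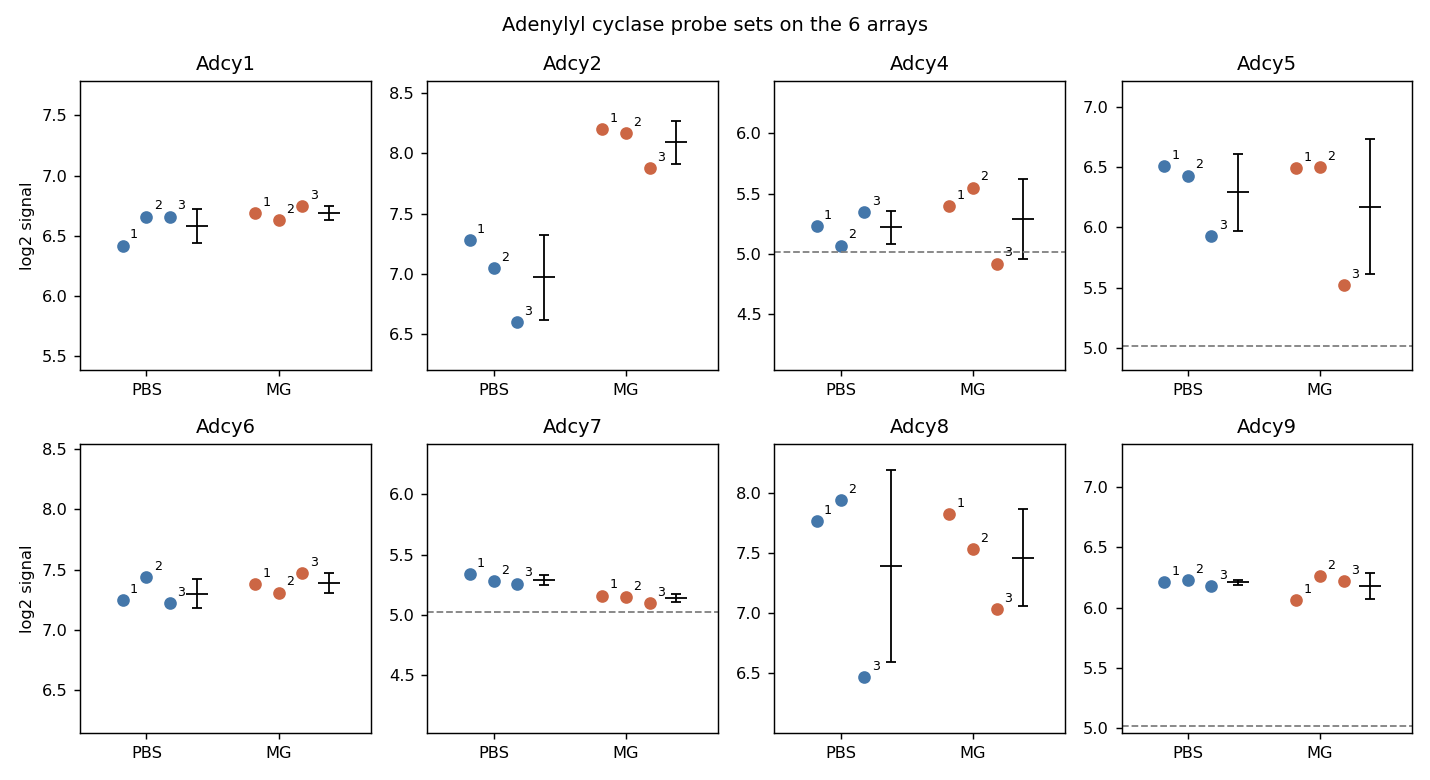
Log2 signal (y axis) of the 8 cyclase probe sets in the PBS and MG cultures (x axis); points are arrays labelled with their replicate number, the bar beside each group is its mean with the standard deviation (n = 3), every panel spans the same log2 height, and the dashed line is the reference level of 5.02 where it lies in range. The Adcy2 points of MG lie between 7.88 and 8.20, above those of PBS between 6.60 and 7.28, while the points of Adcy8 and Adcy5 are lowest on the array numbered 3 of each group.

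Adcy2 had the values 7.28, 7.05 and 6.60 in PBS replicates 1, 2 and 3, and 8.20, 8.17 and 7.88 in MG replicates 1, 2 and 3. The groups did not overlap, and the lowest MG culture was 0.61 above the highest PBS culture. The means were 6.97 ± 0.35 (SD, n = 3) and 8.09 ± 0.18 (SD, n = 3), which is 1.11 apart on the log2 scale (standard error, SE, 0.19), or 2.16-fold. Since this difference is what the family was chosen by, it is given as a description and no test is reported for it. In both groups the array numbered 3 had the lowest Adcy2 signal, and without those arrays the difference was 1.02.

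Adcy2 was also set beside a list of astrocyte genes, because the cultures differed in them. The mean of 8 astrocyte genes, relative to the 6 arrays, was -0.04, 0.25 and -0.39 in PBS replicates 1, 2 and 3, and 0.32, 0.25 and -0.39 in the MG replicates. All 8 astrocyte genes had higher means in MG, with a median log2 difference of 0.11, where 53.8% of all genes had higher means. None of the 8 had an unadjusted p under 0.05 in limma, and the groups overlapped in each. The part of other cell types in the Adcy2 difference was not tested.

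Promoter windows from the RefSeq table of GRCm38.p6 are shown for 3 members: Adcy2, by which the family was chosen, and Adcy7 and Adcy5, which had the smallest and the largest spread within groups among the members with an entry. Each runs from 250 bases before to 50 after an annotated start, and Adcy7 has 3 such starts, of which the one farthest upstream is printed. Capitals mark the GC box GGGCGG, its reverse complement CCGCCC, and the motif TGACG or its reverse complement CGTCA, the shared part of the cyclic AMP response element TGACGTCA that CREB binds.
Adcy2, chr13:68999492-68999791, minus strand: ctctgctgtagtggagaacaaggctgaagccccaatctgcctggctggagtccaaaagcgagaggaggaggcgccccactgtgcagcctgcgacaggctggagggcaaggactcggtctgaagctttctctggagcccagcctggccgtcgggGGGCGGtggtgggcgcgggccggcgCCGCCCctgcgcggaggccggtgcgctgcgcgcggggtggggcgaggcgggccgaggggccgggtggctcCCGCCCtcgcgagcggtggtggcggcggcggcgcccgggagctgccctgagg
Adcy5, chr16:35154614-35154913, plus strand: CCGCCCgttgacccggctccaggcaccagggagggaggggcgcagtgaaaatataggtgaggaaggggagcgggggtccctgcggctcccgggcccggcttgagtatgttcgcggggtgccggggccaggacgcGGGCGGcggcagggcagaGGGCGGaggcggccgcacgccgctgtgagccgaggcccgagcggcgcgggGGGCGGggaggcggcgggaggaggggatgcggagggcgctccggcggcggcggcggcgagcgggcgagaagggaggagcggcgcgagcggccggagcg
Adcy7, chr8:88282742-88283041, plus strand: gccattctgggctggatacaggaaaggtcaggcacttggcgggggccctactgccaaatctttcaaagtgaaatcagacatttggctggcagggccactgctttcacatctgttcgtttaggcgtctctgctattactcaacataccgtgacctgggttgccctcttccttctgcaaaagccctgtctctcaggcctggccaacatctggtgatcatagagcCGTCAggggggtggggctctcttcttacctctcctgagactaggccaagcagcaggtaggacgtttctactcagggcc

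The Adcy2 and Adcy5 windows are rich in CpG dinucleotides and the Adcy7 windows are not. Adcy2 had 32 CpG and a GC content of 75.0%, and Adcy5 had 44 CpG and 79.0%, while the median of 32851 windows of the same length was 7 CpG. The 3 Adcy7 windows had 4, 5 and 6 CpG. Of the windows not printed, those of Adcy1, Adcy4 and Adcy9 had 37, 16 and 42, and those of Adcy3 had 33 and 7. Whether CpG content goes with the spread within groups was not tested. GC boxes began 97, 72 and 2 bases before the Adcy2 start, and the Adcy5 window held 4 of them. Of all windows, 35.7% held a GC box on either strand, 20.8% held TGACG and 1.79% the full response element. The full element, which contains TGACG on each strand, was in none of the 10 windows found for 7 members, and TGACG was in 2, of Adcy7, 28 bases before the start, and of Adcy9. Adcy6 and Adcy8 have no entry. A match is a description of the letters, and the array does not show which start was used.

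None of the other 7 cyclases passed the test between MG and PBS. In limma's moderated test with Benjamini-Hochberg adjustment over all 22180 genes, the adjusted p was 0.9998 for each of the 7, and 0 genes passed at 0.05, a background of 0%. At an unadjusted p under 0.05, none of the 7 was counted, where 712 of all genes, 3.21%, were. An ordinary linear model without moderation also gave 0 adjusted calls and 712 genes at an unadjusted p under 0.05. Of the 7, 4 had higher and 3 lower means in MG, with a median log2 difference of 0.07, beside 0.01 over all genes, of which 53.8% had higher means. These directions are not firm: the median of the 7 was -0.01 with array weights and -0.05 without MG replicate 2, and Adcy9 turned sign with median centring.

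**Figure D2:**
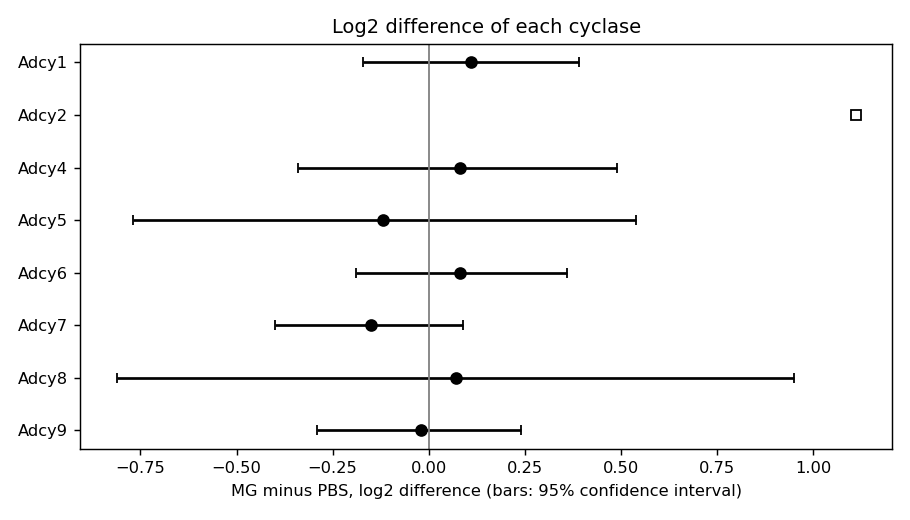
Log2 difference between MG and PBS (x axis) of the 8 measured cyclases (y axis), with 95% confidence intervals from limma (n = 3 per group) for the 7 that were tested; Adcy2, the open square at 1.11, chose the family and is drawn without an interval. The other estimates lie between -0.15 and 0.11 and each interval includes 0, with the widest for Adcy8, from -0.81 to 0.95.

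Among the calcium-stimulated isoforms, Adcy1, known from synaptic plasticity in neurons, was steady. The PBS cultures read 6.42, 6.66 and 6.66 and the MG cultures 6.69, 6.63 and 6.75, so that the groups overlapped. The log2 difference was 0.11 (SE 0.12), with a 95% interval of -0.17 to 0.39, and was 0.03 without PBS replicate 1.

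Adcy8, the other measured calcium-stimulated isoform, varied most between cultures of a group. The PBS cultures read 7.76, 7.94 and 6.47 and the MG cultures 7.82, 7.53 and 7.03. The within-group standard deviation was 0.63, larger than in 98.7% of the 13725 genes above the reference in both groups, whose median was 0.18. The log2 difference of 0.07 had an SE of 0.38, and its interval, from -0.81 to 0.95, covers 1.93-fold higher and a ratio of 0.57. Its sign depended on single arrays and on their weights: it was -0.39 without PBS replicate 3, -0.18 without both arrays numbered 3, -0.11 without MG replicate 1 and -0.09 with array weights. No adjusted p under any setting was below 0.9992.

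Of the isoforms stimulated by beta-gamma subunits besides Adcy2, Adcy4 had values of 5.23, 5.07 and 5.35 in PBS and 5.40, 5.55 and 4.92 in MG. The MG values lay on either side of all PBS values. The log2 difference was 0.08 (SE 0.18, interval from -0.34 to 0.49). Without both arrays numbered 3 it was 0.33, with an adjusted p of 0.9995 (0.0494 before adjustment) in limma.

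Adcy7, the third of these isoforms and one known from immune cells, was lower on every MG array as deposited, by a small amount. The PBS cultures read 5.34, 5.28 and 5.26 and the MG cultures 5.16, 5.15 and 5.10, a gap of 0.09 between the groups and close to the reference level of 5.02. The log2 difference was -0.15 (SE 0.11, interval -0.40 to 0.09), and limma's unadjusted p was 0.188. The cultures of a group were closely alike, with a within-group standard deviation of 0.04, smaller than in all but 0.925% of genes above the reference. The ordinary model, which uses that small spread alone, gave an adjusted p of 0.9999 (0.00752 before adjustment). Adcy7 was the only one of the 7 whose groups did not overlap, where 3.31% of all genes were lower on every MG array and 4.03%, Adcy2 among them, were higher on every MG array. That separation depended on the scaling of the arrays: with quantile normalisation the PBS values ran from 5.18 to 5.33 and the MG values from 5.12 to 5.24, and with median centring from 5.17 to 5.33 and from 5.10 to 5.25, so that the groups overlapped under either.

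The calcium-inhibited isoforms differed in how much they varied. Adcy5, the main cyclase of the striatum, had values of 6.51, 6.43 and 5.93 in PBS and 6.49, 6.50 and 5.52 in MG. The arrays numbered 1 and 2 lay between 6.43 and 6.51 in both groups, and the array numbered 3 was lower in each. The within-group standard deviation was 0.46, larger than in 95.2% of genes above the reference. The log2 difference was -0.12 (SE 0.28, interval from -0.77 to 0.54), it was 0.21 without MG replicate 3, and it was 0.02 without both arrays numbered 3.

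Adcy6, a widely expressed isoform, had values of 7.25, 7.44 and 7.22 in PBS and 7.38, 7.31 and 7.47 in MG. The groups overlapped, and the log2 difference was 0.08 (SE 0.12, interval from -0.19 to 0.36), or 0.00 without both arrays numbered 3. For Adcy9 the PBS cultures read 6.21, 6.23 and 6.18 and the MG cultures 6.06, 6.26 and 6.22. Its groups also overlapped, with a log2 difference of -0.02 (SE 0.11, interval from -0.29 to 0.24), which was 0.02 with median centring. For Adcy1, Adcy6 and Adcy9 the ends of the intervals correspond to ratios between 0.82 and 1.31. A rise the size of the Adcy2 difference lies outside the intervals of all 7, whose highest end is 1.93, for Adcy8. That difference is the one by which the family was chosen, and the intervals share the limit given for the p-values.

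**Figure D3:**
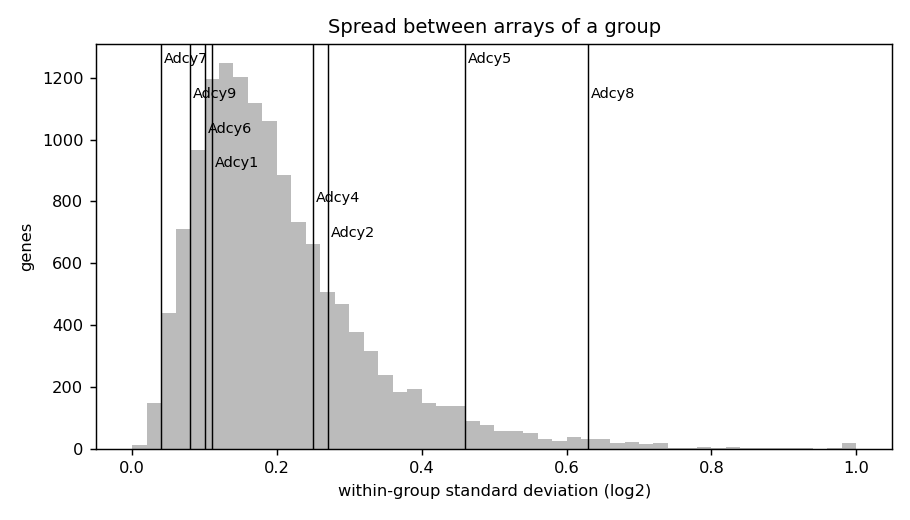
Number of genes (y axis) by within-group standard deviation of the log2 signal (x axis, bins of 0.02, the last holding all higher values) for the 13725 genes above the reference in both groups; lines mark the 8 cyclases. Adcy7 at 0.04 lies at the low end, and Adcy5 at 0.46 and Adcy8 at 0.63 lie at the high end.

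The spread of Adcy8 and Adcy5 followed the replicate number more than the group. On the array numbered 3, relative to the mean of the other arrays of its group, Adcy8 was at -1.38 in PBS and -0.65 in MG. Adcy5 was at -0.55 and -0.97, and Adcy2 at -0.57 and -0.30. In all, 4 of the 8 cyclases, with Adcy7 the fourth, had their lowest value on the array numbered 3 in both groups, where 21.2% of all genes did, and 0 had their highest value there, where 19.6% did. The marker lists moved on the same arrays: the astrocyte mean was -0.39 on each, against -0.04 to 0.32 elsewhere, and the S phase and mitosis genes were higher there. Of the 8 astrocyte genes, 6 had their lowest value on the array numbered 3 in both groups, while Gfap did so in MG alone and Gjb6, which was below the reference, in neither. The widest range was that of Aqp4, the water channel of astrocyte endfeet, with values of 9.84, 10.08 and 8.61 in PBS and 10.28, 10.27 and 8.60 in MG. On the arrays numbered 3 the mean of 6 endothelial genes lay at -0.29 (PBS) and -0.17 (MG), and between 0.00 and 0.22 elsewhere. Of these 6, only Kdr and Flt1 had their lowest value there in both groups. Pecam1, Cdh5 and Tek did so in PBS alone and Cldn5 in MG alone. The mean of 7 oligodendrocyte lineage genes was -0.18 (PBS) and -0.25 (MG) there, and between -0.06 and 0.36 elsewhere, with 3 of the 7 lowest there in both groups. The part of these lists in the spread of the cyclases was not tested.

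**Figure D4:**
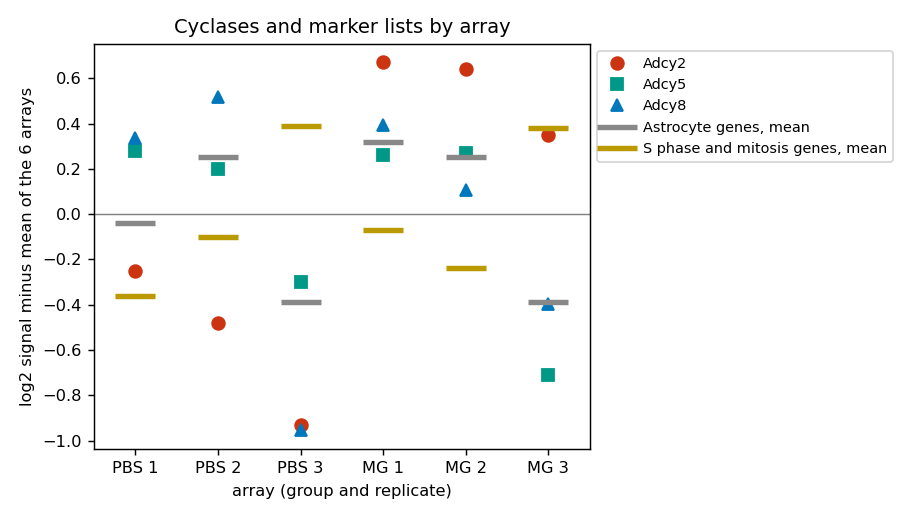
Log2 signal relative to the mean of the 6 arrays (y axis) for Adcy2, Adcy5 and Adcy8 (points) and for the means of 8 astrocyte and 9 S phase and mitosis genes (bars), by array (x axis). On both arrays numbered 3 the astrocyte mean is -0.39 and Adcy5 and Adcy8 are below 0, while Adcy2 is below 0 on the 3 PBS arrays and above 0 on the 3 MG arrays.

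The genes nearest to Adcy2 in pattern were Clec2l, Kcnj16, Id4, Faim2 and Lrp11. Likeness was the root mean square difference over the 6 arrays between profiles from which the mean of each gene had been taken, among the 13724 other genes above the reference in both groups. It was 0.27 for Clec2l, a C-type lectin-like gene, and 0.29 for Kcnj16, a potassium channel subunit. It was 0.31 for Id4, an inhibitor of helix-loop-helix factors, and for Faim2, an inhibitor of Fas-mediated apoptosis, and 0.34 for the LDL receptor-related gene Lrp11. The median over all genes was 0.61, and the sixth gene was also at 0.34, so no gap sets these 5 apart. The other cyclases lay between rank 3361 (Adcy6) and rank 10292 (Adcy7). A cyclase without a difference between groups like that of Adcy2 was bound to lie farther from it. The ranks therefore restate the difference by which the family was chosen. Because the measure holds the difference between groups, genes near Adcy2 were bound to be higher in MG: Id4, for example, had values of 7.14, 7.13 and 6.96 in PBS and 7.68, 7.81 and 7.47 in MG.

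The rest of the cyclic AMP pathway was read from lists of 126 genes, of which 111 had a probe set of their own. None passed the adjusted test. An unadjusted p under 0.05 was found in 4, 1 with a higher and 3 with a lower mean in MG, a share of 3.60% beside 3.21% of all genes. Of the 111, 65 had higher and 46 lower means, with a median log2 difference of 0.02. The groups did not overlap in 4 genes with higher and 4 with lower values in MG, near the shares among all genes given above.

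**Figure D5:**
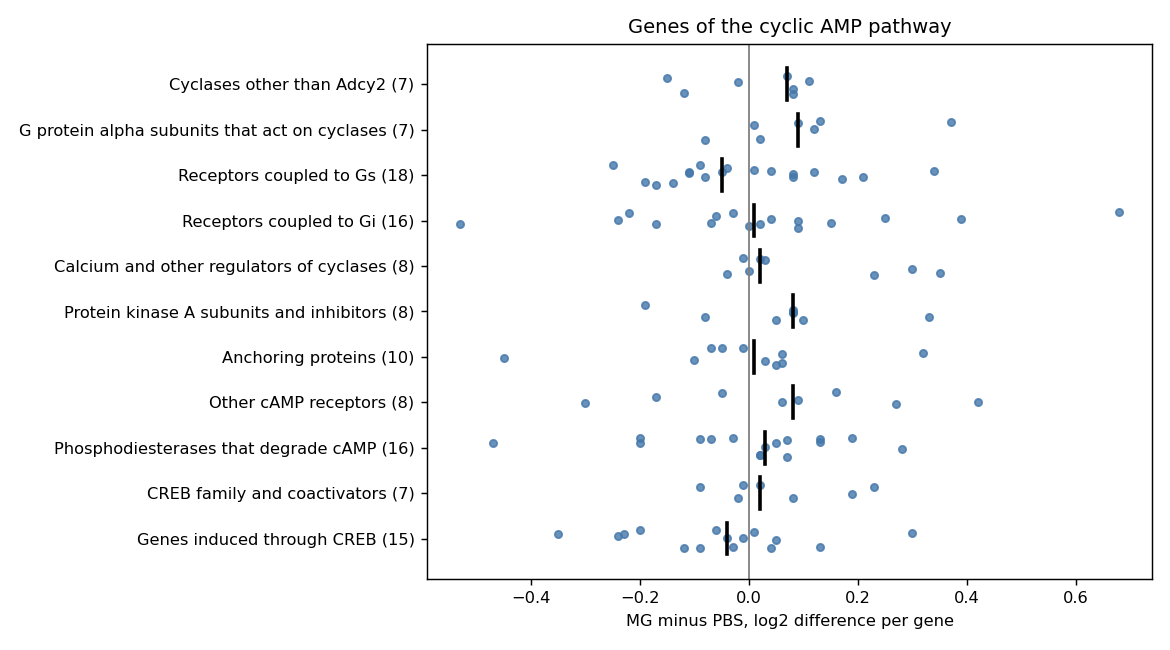
Log2 difference between MG and PBS (x axis) of every measured gene of the cyclic AMP pathway lists, apart from Adcy10 and Abcc4, which each form a list alone, and of the 7 cyclases other than Adcy2 (y axis, number of genes in brackets); points are genes, spread vertically for legibility, and black bars are list medians. The medians lie between -0.05 and 0.09, and the points between -0.53 and 0.68.

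Upstream of the cyclases, the G protein subunits differed little. Of 7 alpha subunits, 6 had higher means in MG, with a median log2 difference of 0.09 and none with an unadjusted p under 0.05. Gnas, the stimulatory subunit, stood at 5.91 ± 0.10 in PBS and 5.92 ± 0.03 in MG (SD, n = 3), and Gnal, its relative of olfactory and striatal cells, at 6.09 ± 0.06 and 6.21 ± 0.14. The Gnas signal was below the stricter reference of 6.05 on every array. The inhibitory subunit genes Gnai1, Gnai2 and Gnai3 had log2 differences of 0.13, 0.09 and -0.08, each with an SE of 0.12 or less. Gnao1, which encodes the abundant alpha subunit of brain, had the smallest p of the list, with values of 9.12, 9.05 and 8.79 in PBS and 9.40, 9.01 and 9.66 in MG. Its log2 difference of 0.37 was 0.22 without MG replicate 3, and 0.12 once PBS replicate 3 was left out as well.

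Of 18 measured receptors coupled to the stimulatory G protein, 13 were above the reference in both groups, and 8 had higher and 10 lower means in MG (median log2 difference -0.05, which was 0.01 with quantile normalisation and 0.06 without PBS replicate 1). Adcyap1r1, the PACAP receptor, had values of 10.92, 10.95 and 10.99 in PBS and 11.13, 11.05 and 11.17 in MG. These groups did not overlap, with a gap of 0.06, and differed by 0.17 (SE 0.11). It was the only gene of this list higher on every MG array, and 1 other was lower on every MG array. Among all genes the shares were 4.03% and 3.31%. Vipr2, which binds VIP and PACAP, stood at 7.26 ± 0.16 and 7.34 ± 0.25 (SD, n = 3). Mc4r, a melanocortin receptor, had the smallest p of this list, with a log2 difference of 0.34 (SE 0.20), which was 0.13 without PBS replicate 1 and 0.55 without both arrays numbered 3.

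Among 16 receptors coupled to inhibitory G proteins, 2 had an unadjusted p under 0.05, in opposite directions, where 3.21% of all genes had one. Htr1b, a serotonin receptor, had values of 5.55, 5.66 and 5.26 in PBS and 4.93, 5.06 and 4.89 in MG, with a mean above the reference in PBS alone. Its log2 difference was -0.53 (SE 0.14), and -0.61 without both arrays numbered 3. Gabbr2, a subunit of the GABA-B receptor that was singled out after its values were seen, had values of 6.85, 7.36 and 6.85 in PBS and 7.40, 7.47 and 8.23 in MG. The groups of Gabbr2 were 0.04 apart, and those of Htr1b 0.20. Gabbr2 differed by 0.68 (SE 0.25), by 0.42 without MG replicate 3, and by 0.33 once PBS replicate 3 was left out as well. Among 8 regulators of cyclases the median log2 difference was 0.02, and the calmodulin-dependent kinase gene Camk4 had the smallest p, with a log2 difference of 0.35 (SE 0.20). That of Camk4 was 0.18 without PBS replicate 1, 0.56 without PBS replicate 2 and 0.13 when its probe sets were averaged.

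Downstream, all 8 measured subunits and inhibitors of protein kinase A were above the reference, and none had an unadjusted p under 0.05. The catalytic subunit genes Prkaca and Prkacb had log2 differences of 0.08 (SE 0.19) and -0.19 (SE 0.11), and the Prkacb groups did not overlap, at 9.51 to 9.63 in PBS and 9.30 to 9.40 in MG. The regulatory subunit genes went different ways in their means: Prkar1a differed by -0.08 (SE 0.11) and Prkar2b by 0.33 (SE 0.17). Prkar2b lay between 7.91 and 8.22 in PBS and between 8.28 and 8.79 in MG, and its groups overlapped after quantile normalisation. Its difference was 0.17 without MG replicate 1, the highest MG culture, and 0.47 without both arrays numbered 3. Of 10 anchoring proteins, which hold the kinase at its sites, 5 had higher and 5 lower means, and Akap12 had the smallest p (log2 difference -0.45, SE 0.27, from -0.76 without MG replicate 1 to -0.27 without MG replicate 2). Rapgef3, the cyclic AMP-activated exchange factor for Rap, had values of 6.70, 6.84 and 7.01 in PBS and 7.16, 7.00 and 7.65 in MG, where MG replicate 2 lay just under the highest PBS value. Its log2 difference of 0.42 was 0.23 without MG replicate 3, the highest MG culture, and 0.20 when its probe sets were averaged. In the list of other cyclic AMP receptors that holds Rapgef3, 4 of 8 genes were above the reference. The gene with the smallest p, Popdc2, was below the reference in both groups. Popdc2 lay between 4.84 and 4.97 in PBS and between 4.53 and 4.68 in MG. Its log2 difference was -0.30 (SE 0.11), with an adjusted p of 0.9998 (0.0283 before adjustment) in limma.

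Of 16 phosphodiesterases, which remove cyclic AMP, 15 were above the reference in both groups, and 10 had higher and 6 lower means in MG (median log2 difference 0.03). Pde3a, inhibited by cyclic GMP, had the smallest p of the list, with values of 6.75, 6.53 and 6.29 in PBS and 6.04, 6.33 and 5.79 in MG. Pde3a differed by -0.47 (SE 0.18), and by -0.45 without both arrays numbered 3. Pde1c, activated by calmodulin, lay between 5.36 and 5.80 in PBS and between 5.85 and 5.99 in MG, a difference of 0.28 that was 0.15 without PBS replicate 3. Pde4b differed by 0.05 (-0.11 without MG replicate 2), Pde4d by -0.20 (-0.02 without MG replicate 3) and Pde10a by 0.02 (-0.01 with quantile normalisation), each by no more than its SE of 0.17, 0.20 and 0.13. The exporter gene Abcc4 differed by 0.14 (SE 0.14).

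The transcription factor CREB and its targets gave no call. Creb1 stood at 9.21 ± 0.06 in PBS and 9.23 ± 0.09 in MG (SD, n = 3), and Crem, which encodes a related factor and is itself induced through CREB, at 6.50 ± 0.23 and 6.41 ± 0.22. Of 7 genes of the CREB family and its coactivators, 4 had higher means, and Crtc1 had the smallest p (log2 difference 0.19, SE 0.22). The Crtc1 value depended on which MG array was left out: it was 0.45 without MG replicate 1 and -0.00 without MG replicate 3. Of 15 genes induced through CREB, 5 had higher and 10 lower means in MG, with a median log2 difference of -0.04 (0.08 without MG replicate 1) and none with an unadjusted p under 0.05. The one with the smallest p was Junb, at -0.24 (SE 0.16), or -0.09 without MG replicate 1. Relative to the 6 arrays, the mean of that list was -0.04, -0.01 and 0.14 in the PBS replicates and -0.31, 0.02 and 0.20 in the MG replicates, so that the MG group held both the lowest and the highest culture.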

How the data were processed

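Total RNA (250 ng) from 6 neurosphere cultures was labelled as biotinylated cDNA and hybridised, per the labels' protocols, to Mouse Gene 2.0 ST arrays of Affymetrix. The authors deposited log2 values, 1 per probe set and array. That scale was inferred from their range, 0.73 to 13.81. The submitters' processing notes name Partek 6.6. Background correction, normalisation, summarisation and genome build were not given in the sources used here. Over 41345 probe sets the median was 5.25 to 5.42 over the arrays, and the number of arrays limits the precision.

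Probe sets were named through the platform annotation (23521 with 1 gene, 1814 with several, 16010 without). Of the former, 23328 had a gene ID in the RefSeq table of GRCm38.p6. Where a gene had several probe sets (1082 genes), the brightest on average was used. MG was compared with PBS, 3 arrays each, with limma 3.58.1 in R 4.3.3 (lmFit, eBayes, two-sided, no covariate), Benjamini-Hochberg adjusted over 22180 genes, threshold 0.05. The steps were tested on simulated data. Figures were drawn with matplotlib 3.10.9. The members and lists were chosen with earlier results of these data known. Pathway genes named were those fixed by role, the gene with the smallest p in each list, and the 5 nearest to Adcy2. Alternatives were arrays left out, a replicate block, weights for arrays, median centring or quantile normalisation, other moderation, the mean of a gene's probe sets, dim genes removed, and other reference percentiles.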

Additional observations from a re-analysis of the deposited data

How the results depend on the processing

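No cyclase and no gene passed the adjusted threshold under any alternative run. Between 292 (dim genes left out) and 1163 (array weights) genes had an unadjusted p under 0.05, apart from arrays left out, where the count ran from 416 (without PBS replicate 1) to 1067 (without replicate 3). The groups did not overlap in 1629 genes, in 845 with dim genes left out, and in 2822 to 6925 with arrays left out, where fewer arrays make a lack of overlap more frequent. The Adcy2 difference ran from 0.92 (without PBS replicate 3) to 1.26, which its choice largely fixed.

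For the other 7 cyclases, 96 values kept their direction and 9 turned sign. Removing dim genes, averaging probe sets, changing the moderation or adding the replicate block left each difference unchanged. Values under those settings could not turn sign. Adcy9 was 0.02 with median centring, which moved the median of all genes to 0.05, and Adcy8 was -0.09 with array weights. With arrays left out, Adcy4 ran from -0.05 to 0.33, Adcy5 from -0.30 to 0.21, Adcy8 from -0.39 to 0.34 and Adcy9 from -0.06 to 0.04. Medians were taken of the pathway lists, singly and together, of the cyclases other than Adcy2, and of all genes. Of these medians, 184 stayed within the spread between replicates and 10 moved beyond it. Of the differences of named pathway genes, 446 stayed within it and 2 did not (Gnas at -0.06 and Prkacb at -0.13 without both arrays numbered 3). The 446 is no measure of stability, because leaving out 1 array cannot move a difference beyond that spread. Removing dim genes, changing the moderation or adding the replicate block left these differences unchanged as well. With 1 array left out, 25 of 30 named pathway genes moved by over 1.5 times or turned sign, 6 of them turning sign. The cause was not tested. Same-numbered arrays deviated together with correlations over genes of 0.22, 0.04 and 0.45, so the numbers were not taken as pairs, and not every array correlated best with its own number. With the replicate block, 1063 genes had an unadjusted p under 0.05 and none passed after adjustment. At the 90th percentile of the receptor genes 8 cyclases were above the reference in both groups, and at the 99th 6 were.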
